A study of Homo sapiens with 12 samples.

Results

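Gene levels in human motor neurons (iMNs) were set against those in NGN2-induced glutamatergic neurons (i3Ns). All 12 RNA-seq libraries of the series entered, 6 for each cell type, and each gene had 1 mean normalized count per cell type. Of 19329 genes with a mean in either cell type, 16093 had a mean in both, out of 16406 for iMNs and 19016 for i3Ns. The iMNs came from an iPSC line of 1 donor that carries Td-Tomato under the HB9 promoter. They were patterned in embryoid bodies with small molecules that included retinoic acid and a smoothened agonist, and were sorted by FACS on the reporter. The i3Ns came from the H1 ES cell line, engineered for inducible NGN2 expression. In each cell type, 3 libraries carried a scrambled shRNA (SCR) and 3 an shRNA against SMN1 and SMN2 (SMN-KD), delivered by lentivirus. The deposited mean covers the SCR and SMN-KD libraries together, so every level below mixes both, and the effect of the knockdown is not described here.

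HB9 is the protein encoded by MNX1, a homeobox gene that postmitotic motor neurons keep on. Spinal motor neurons arise from ventral progenitors that express OLIG2, and their fate is set by LIM homeobox factors such as ISL1 and LHX3. They release acetylcholine and settle into columns along the body axis according to the HOX genes they express. NGN2, the product of NEUROG2, is a proneural factor of the basic helix-loop-helix family that drives stem cells straight into neurons. Excitatory neurons of the brain load glutamate into vesicles with a transporter of the SLC17 family.

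Because each cell type had 1 mean per gene and no value per library, differences between iMNs and i3Ns had no replicate check and no test was made. Counts per library, and with them the depth and the error of each mean, are unknown. Cell type, stem cell line, differentiation protocol and sorting differ together between the groups, and their parts in any difference cannot be told apart. The size of a difference was read against all genes. The means were scaled so that the genes found in both cell types had equal sums, and values below are scaled mean normalized counts unless per kilobase is stated. These counts are not corrected for length, so genes are ranked against each other only per kilobase. Where a pair of values is given without names, the iMN value comes first. The median log2 ratio of iMNs over i3Ns over 16093 genes was -0.01, with quartiles of -0.45 and 0.53. The median absolute log2 ratio was 0.49, or 1.40-fold, and 75.4% of genes lay within 2-fold. A ratio of 4-fold or more was taken as a large difference. By that rule 924 genes (5.74%) were higher in iMNs and 518 (3.22%) were higher in i3Ns. Counts of large differences in each list below are to be read beside these shares. Across genes, log2 levels in both cell types had a Pearson's r of 0.910 and a Spearman's rho of 0.923, which describe genes and not replicates.

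**Figure D1:**
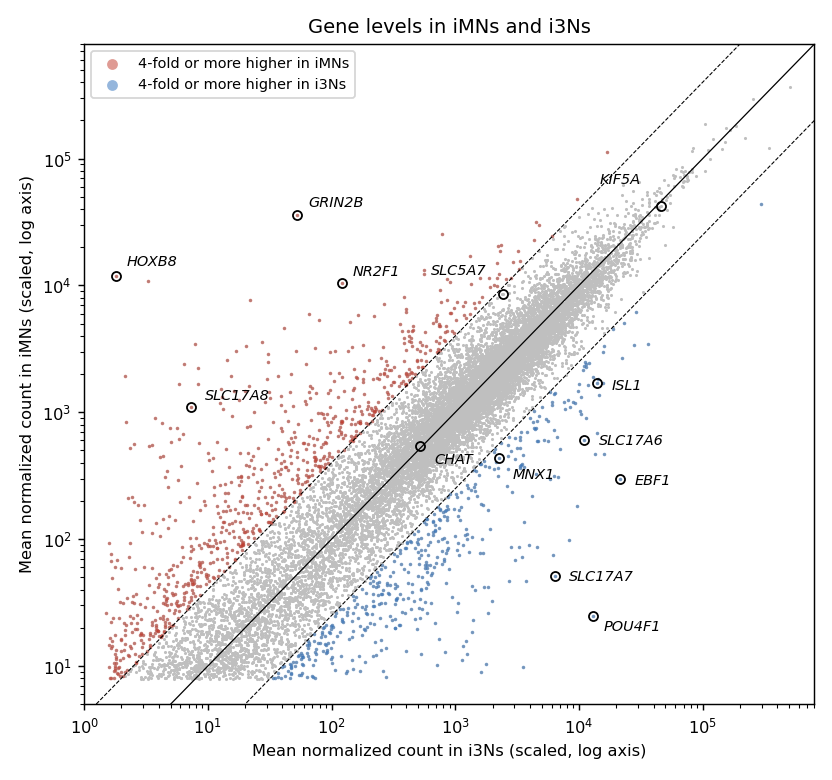
Scaled mean normalized count of each gene in iMNs against i3Ns, both on log axes, for the 15098 annotated genes with 1 identifier that had a mean in both. Each point is a gene, the solid line marks equal levels and the dashed lines 4-fold differences. MNX1, ISL1 and SLC17A6 lie below the lower dashed line and HOXB8, GRIN2B, NR2F1 and SLC17A8 above the upper one, while CHAT and KIF5A lie near the solid line.

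The share of large differences varied with level. Among the 2785 genes whose higher mean was under 100, 10.7% were 4-fold or more higher in iMNs and 2.91% in i3Ns. Among the 4823 genes from 100 to 1000, these shares were 7.24% and 5.16%. Among the 8485 genes that reached 1000 or more, these shares were 3.28% and 2.22%. The lowest mean given was 7.73 for iMNs and 1.37 for i3Ns, so the filters on low values differed. A gene with no mean in a cell type is therefore called not listed, and is not read as absent. Such a gene has no ratio and is left out of these shares. In all, 2923 were listed in i3Ns alone and 313 in iMNs alone. A low mean could thus be missing in iMNs where a mean of that level was kept in i3Ns. The part of this gap in the larger shares towards iMNs was not tested. Among genes that every cell uses, no mitochondrially encoded protein, cytosolic ribosomal protein or proteasome subunit was 4-fold or more apart. The 13 mitochondrially encoded proteins ranged from -0.60 to 0.55 in log2 ratio, the 80 cytosolic ribosomal proteins from -1.09 to 0.77 and the 35 proteasome subunits from -0.55 to 1.60. Of 16 housekeeping genes, 2 (12.5%) were 4-fold or more higher in iMNs, beside 5.74% over all genes, and none in i3Ns. One of them was HPRT1, a purine salvage enzyme, at 4358 in iMNs and 856 in i3Ns. ACTB, encoding a cytoplasmic actin, stood at 181669 and 187160.

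Several transcription factors that mark motor neurons did not follow the names of the cell types. MNX1 stood at 438 in iMNs and 2236 in i3Ns, a log2 ratio of -2.35. The iMNs were sorted on a reporter driven by this gene's promoter. ISL1 was at 1695 in iMNs and 14028 in i3Ns, a log2 ratio of -3.05. Per kilobase of transcript, MNX1 in iMNs was above 39.4% of the protein-coding genes listed there, and in i3Ns above 82.1%. By the same measure, ISL1 in i3Ns was above 98.3% of the protein-coding genes listed there, and in iMNs above 71.2%. ISL2, the close relative of ISL1, was at 72 and 3491. LHX3, which pairs with ISL1 in newborn motor neurons, was low in both, at 15 and 225, and its paralog LHX4 was at 1060 and 7670. OLIG2, the factor of motor neuron progenitors, was at 21 and 355.

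Of the 23 motor neuron transcription factors and related genes listed, 22 had a mean in both cell types. Of these, 10 were 4-fold or more higher in i3Ns and 3 in iMNs, with a median log2 ratio of -1.81 beside -0.01 over all genes. PHOX2A, of visceral and cranial motor neurons, was among the former, at 36 in iMNs and 237 in i3Ns. ETV1, an ETS factor of motor pools and proprioceptive circuits, was at 75 and 6122, the widest gap of the list towards i3Ns. ESRRB, a nuclear receptor, was at 33 and 330. NKX6-1, a ventral progenitor factor, was at 403 and 1497, and LMO4, a LIM-only cofactor, at 1872 and 6222, both under 4-fold apart.

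Of the 22 genes of this list with a mean in both, 7 had a ratio towards iMNs, 3 of them of 4-fold or more. NR2F1, the orphan nuclear receptor COUP-TFI, was at 10452 in iMNs and 121 in i3Ns, a log2 ratio of 6.43. NKX6-2 was at 611 and 76, and ALDH1A2, which makes retinoic acid in limb-level motor neurons, at 184 and 32. FOXP1, the cofactor that sets lateral motor column identity together with HOX proteins, was at 5702 and 1612, a log2 ratio of 1.82. ONECUT1 was at 6280 and 2672. ONECUT2, of the same family, was at 37652 and 35622. POU3F1, a POU factor of motor neuron subsets, was at 1058 and 1256.

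**Figure D2:**
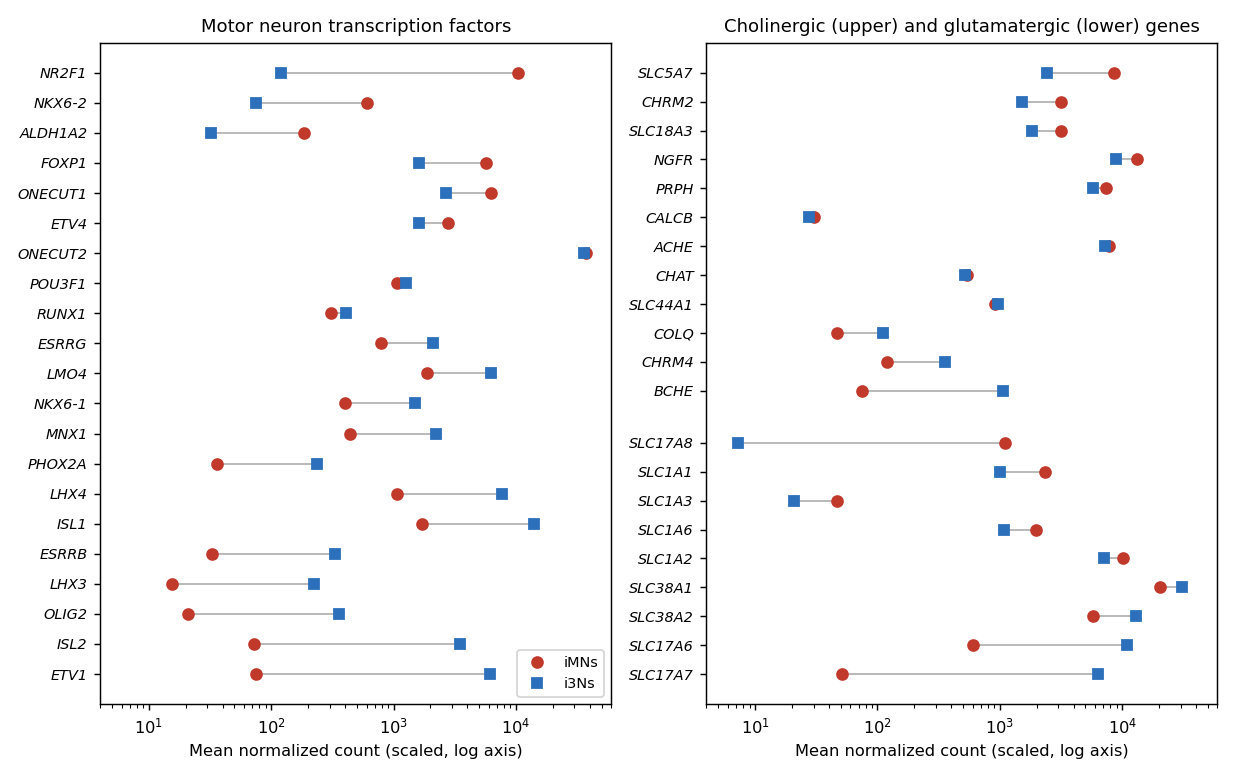
Scaled mean normalized counts, on log axes, of motor neuron transcription factors (left) and of cholinergic and glutamatergic genes (right) with 1 identifier and a mean in both cell types that are reported here. Circles are iMNs and squares are i3Ns, and genes are ordered by log2 ratio. MNX1, ISL1, LHX3 and ISL2 have the square on the right, at 2236, 14028, 225 and 3491, whereas CHAT has both symbols together at 543 and 517.

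The machinery for acetylcholine was present in both cell types. CHAT, which makes acetylcholine, was at 543 in iMNs and 517 in i3Ns, a log2 ratio of 0.07. SLC18A3, which loads acetylcholine into vesicles, was at 3175 and 1830, and SLC5A7, which takes choline back into the terminal, at 8624 and 2425. ACHE, which breaks acetylcholine down, was at 7857 and 7284. The related enzyme BCHE went the other way, at 75 in iMNs and 1061 in i3Ns. PRPH, the peripherin gene of neurons that project out of the central nervous system, was at 7429 and 5723. Of 13 cholinergic genes with a mean in both, 1 (7.69%) was 4-fold or more higher in each direction, and the median log2 ratio was 0.13. The shares over all genes were 5.74% towards iMNs and 3.22% towards i3Ns. The gene higher in iMNs carried several identifiers, and its value is not given.

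Receptors for acetylcholine were split. Of 9 nicotinic subunits with a mean in both, 3 were 4-fold or more higher in i3Ns and none in iMNs. The 3 were CHRNA3 at 640 in iMNs and 6630 in i3Ns, CHRNB4 at 384 and 3418, and CHRNA5 at 244 and 1340. These subunits form the receptor of autonomic ganglia, and their genes lie side by side on chromosome 15. CHRNA4, a subunit of the main receptor of the brain, was at 7444 and 3478. The muscarinic receptor CHRM2 was at 3169 and 1530, and CHRM4 at 119 and 357.

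Among the glutamatergic genes, the vesicular transporters had the widest ratios, and the 3 family members did not share a direction. SLC17A6, encoding VGLUT2, was at 605 in iMNs and 11024 in i3Ns, a log2 ratio of -4.19. SLC17A7, encoding VGLUT1, was at 51 and 6367, a log2 ratio of -6.96. SLC17A8, encoding VGLUT3, was at 1094 in iMNs and 7 in i3Ns, a log2 ratio of 7.24. In i3Ns, SLC17A6 led the family per kilobase, at 3008 beside 2159 for SLC17A7 and 1.82 for SLC17A8. In iMNs the order was SLC17A8 at 275 per kilobase, SLC17A6 at 165 and SLC17A7 at 17.3. The stretch around each start site, from 250 bases before it to 50 after it, is shown because the 3 genes encode related transporters with opposite levels. It was copied from RefSeq on GRCh38.p14, 5′ to 3′ on the strand of the gene, with each CG dinucleotide in capitals.
SLC17A6: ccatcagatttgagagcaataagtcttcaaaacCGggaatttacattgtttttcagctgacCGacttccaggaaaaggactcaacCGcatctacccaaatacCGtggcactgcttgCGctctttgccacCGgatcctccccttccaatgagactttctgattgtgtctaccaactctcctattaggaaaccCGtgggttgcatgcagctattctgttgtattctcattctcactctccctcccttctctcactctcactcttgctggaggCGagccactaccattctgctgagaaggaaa
SLC17A7: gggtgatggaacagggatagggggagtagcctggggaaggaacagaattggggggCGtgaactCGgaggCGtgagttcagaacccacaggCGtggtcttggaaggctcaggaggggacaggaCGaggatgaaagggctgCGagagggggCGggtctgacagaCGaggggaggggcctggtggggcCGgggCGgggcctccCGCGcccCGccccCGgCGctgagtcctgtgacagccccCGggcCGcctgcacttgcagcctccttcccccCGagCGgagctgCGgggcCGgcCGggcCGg
SLC17A8: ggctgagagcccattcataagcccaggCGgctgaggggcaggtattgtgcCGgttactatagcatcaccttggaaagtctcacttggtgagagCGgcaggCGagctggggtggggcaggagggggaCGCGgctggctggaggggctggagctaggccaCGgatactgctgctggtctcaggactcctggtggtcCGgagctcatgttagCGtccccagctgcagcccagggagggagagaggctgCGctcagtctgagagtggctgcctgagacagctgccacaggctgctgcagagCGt
These windows lie at chr11:22338131-22338430 on the plus strand, chr19:49441478-49441777 on the minus strand and chr12:100356824-100357123 on the plus strand. They hold 8, 23 and 11 CG dinucleotides, a motif that reads CG on both strands. Over 9639 autosomal coding genes with a level of 100 or more and a matched window, the median was 28. Observed over expected CG content was 0.494, 0.636 and 0.378. Of all 9639 windows, 88.2% reached 0.6, and SLC17A7 alone of the 3 did.

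The other glutamatergic genes were under 4-fold apart. The widest gap among them towards iMNs was that of SLC1A1, at 2360 and 1000. Towards i3Ns it was that of SLC38A2, at 5776 and 13072. SLC38A1, a glutamine carrier, was at 20527 in iMNs and 30574 in i3Ns, and SLC1A2, a glutamate uptake transporter, at 10157 and 7044. Of the 10 listed, 1 was 4-fold or more higher in iMNs, 2 were in i3Ns, and all 3 were the SLC17 genes above. Genes of inhibitory neurons were at lower counts. GAD1, which makes GABA, was at 422 and 10, and SLC32A1, which loads GABA and glycine into vesicles, at 40 and 152. SLC6A9, a glycine transporter, was at 730 and 243. TH, which makes the precursor of dopamine, was at 410 in iMNs and SLC6A5, the neuronal glycine transporter, at 97, and neither was listed in i3Ns. Both were named after their values were seen.

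HOX genes had the highest median ratio of the 33 lists. Of the 39 human HOX genes, 31 were listed in at least 1 cell type, and the remaining 8 were not analysed here. In iMNs 24 stood at 100 or more and 19 at 1000 or more, whereas in i3Ns 3 reached 100 and none reached 1000. Of 18 with a mean in both, 16 were 4-fold or more higher in iMNs, beside 5.74% over all genes, and none was in i3Ns. Their median log2 ratio was 6.30. A further 9 were listed in iMNs alone and 4 in i3Ns alone, the latter at 20 or below. Summed over the listed genes, HOX levels came to 115194 in iMNs and 982 in i3Ns.

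HOX genes lie in 4 clusters, and their paralog number follows the body axis from the hindbrain (low) to the tail (high). Levels in iMNs were high up to paralog group 9 and low beyond it. HOXB9, of that group, was at 33880 in iMNs, the highest per kilobase of the HOX genes at 13102, and was not listed in i3Ns. HOXB8 stood at 11781 and 1.81, HOXA5 at 10748 and 3.30, HOXB5 at 8303, HOXB6 at 7668 and HOXC6 at 7620. HOXB5 and HOXB6 were not listed in i3Ns. In HOXA, all 7 listed genes reached 100 or more in iMNs, with HOXA2 at 545 and HOXA3 at 5457. In HOXC, HOXC4 was at 2574, HOXC5 at 446 and HOXC8 at 356 in iMNs, whereas HOXC10 was at 14. HOXC9, a factor of thoracic levels, was listed in i3Ns alone, at 20. In HOXD, HOXD3 was at 3033, HOXD4 at 1825 and HOXD8 at 2053, and HOXD10 was at 9. Summed by paralog group, iMN levels were 34107 for group 9, carried almost wholly by HOXB9, 23.7 for group 10, and no gene of group 13 was listed.

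The HOX genes with levels above 100 in i3Ns were HOXD9, HOXB2 and HOXD8. HOXD9 was the only HOX gene with a mean in both that was higher in i3Ns, at 297 beside 226 in iMNs. HOXB2 was at 267 in i3Ns and 1988 in iMNs, and HOXD8 at 116 in i3Ns and 2053 in iMNs. The ratio of summed levels was 466 for HOXA, 214 for HOXB, 169 for HOXC and 14.5 for HOXD. The i3N means of HOXB8, HOXB4 and HOXA5 were close to the lowest mean given for i3Ns, so their ratios, of 6505-fold for HOXB8, 903-fold for HOXB4 and 3256-fold for HOXA5, are imprecise. With a pseudocount of 10 added to both means, the log2 ratio of HOXB8 was 9.96 in place of 12.67.

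**Figure D3:**
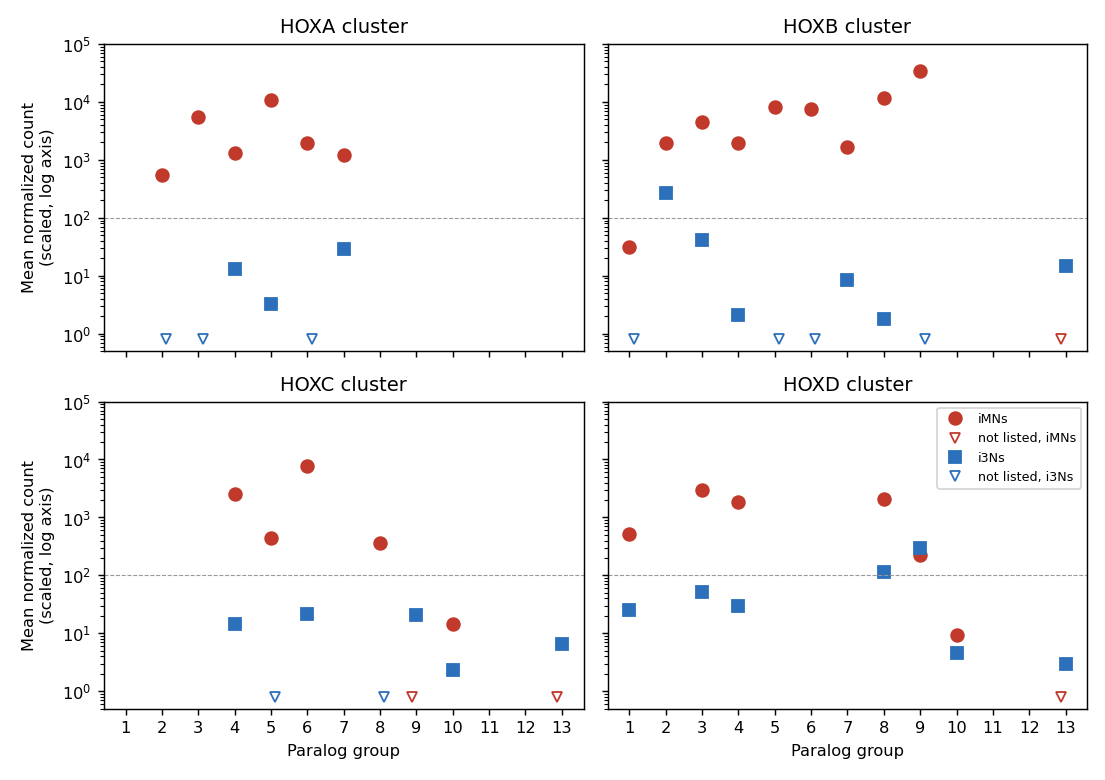
Scaled mean normalized count of the listed HOX genes reported here, on a log axis, by paralog group and cluster, in iMNs (circles) and i3Ns (squares). Open triangles at the foot of each panel mark genes not listed in that cell type, and the dashed line marks 100. Circles run from paralog group 1 up to group 9 and drop at group 10, and 3 squares lie above the dashed line, HOXB2 at 267, HOXD8 at 116 and HOXD9 at 297.

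Among the position genes, the HOX cofactors MEIS2 and MEIS1 were 4-fold or more higher in iMNs. MEIS2 was at 25351 in iMNs and 775 in i3Ns, and MEIS1 at 13125 and 554, with log2 ratios of 5.03 and 4.57. PBX3, a partner of both, was under 4-fold apart, at 18408 and 9474. Some other position genes were higher in i3Ns or listed there alone. IRX5 was at 313 and 2213 and IRX3 at 173 and 979. ZIC2, of the dorsal neural tube and forebrain, was at 3017 in i3Ns and not listed in iMNs. Of 12 forebrain and midbrain position genes with a mean in both, the 2 at 4-fold or more towards iMNs were MEIS2 and MEIS1. Towards i3Ns there were 3, and the median log2 ratio was 0.47. Of the 23 genes of this list with a mean in either cell type, 11 were listed in i3Ns alone, 3 of them at 100 or more. None was listed in iMNs alone. OTX2, a factor of midbrain and forebrain, was listed in i3Ns alone, at 62. It was named after its value was seen.

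Factors of sensory neurons were high in i3Ns. POU4F1, or BRN3A, the POU factor of sensory ganglia, was at 25 in iMNs and 12879 in i3Ns, a log2 ratio of -9.03 and the largest towards i3Ns among coding genes with 1000 or more. DRGX, of dorsal root ganglion and dorsal horn neurons, was at 12 and 1232, and POU4F3 at 13 and 819. Of 16 sensory neuron genes with a mean in both, 8 were 4-fold or more higher in i3Ns, beside 3.22% over all genes, and none in iMNs. The median log2 ratio was -1.80. Channels and receptors of pain neurons did not share this gap. P2RX3 was at 4396 in iMNs and 5230 in i3Ns, and SCN9A at 5327 and 7094. These were also named after their values were seen.

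Several cortical and proneural factors were also higher in i3Ns. TBR1, of deep-layer cortical neurons, was at 10 and 1767, NEUROD1 at 90 and 3962, and BCL11B at 12 and 229. CUX1, of upper layers, was level at 6790 and 5253. Of 14 cortical factors with a mean in both, 6 were 4-fold or more higher in i3Ns and none in iMNs, with a median of -0.98. Among 16 proneural factors these counts were 6 and 1, with a median of -1.39. EBF1, a helix-loop-helix factor of differentiating neurons, was at 295 and 21434, its relative EBF2 at 1982 in i3Ns and not listed in iMNs. NHLH1 was at 183 and 9590, NEUROD4 at 42 and 1828, and INSM1, a zinc finger factor of newborn neurons, at 86 and 3263. SOX11, of immature neurons, was level at 71866 and 65936. NEUROG2, the factor induced in i3Ns, was named after its values were seen. It was at 268 in iMNs and 112 in i3Ns, and reads of the endogenous gene and of a transgene cannot be told apart in these means.

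Factors of spinal interneurons split by gene. SOX14 was at 751 in iMNs and 6 in i3Ns. LBX1, of dorsal horn and hindbrain interneurons, was at 211 and 2. SIM1, of V3 interneurons, was at 26 and 1852, and LHX9, of dorsal commissural neurons, at 3504 in i3Ns and not listed in iMNs. UNCX, a homeobox gene of several neuron groups, was at 10 and 3502.

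**Figure D4:**
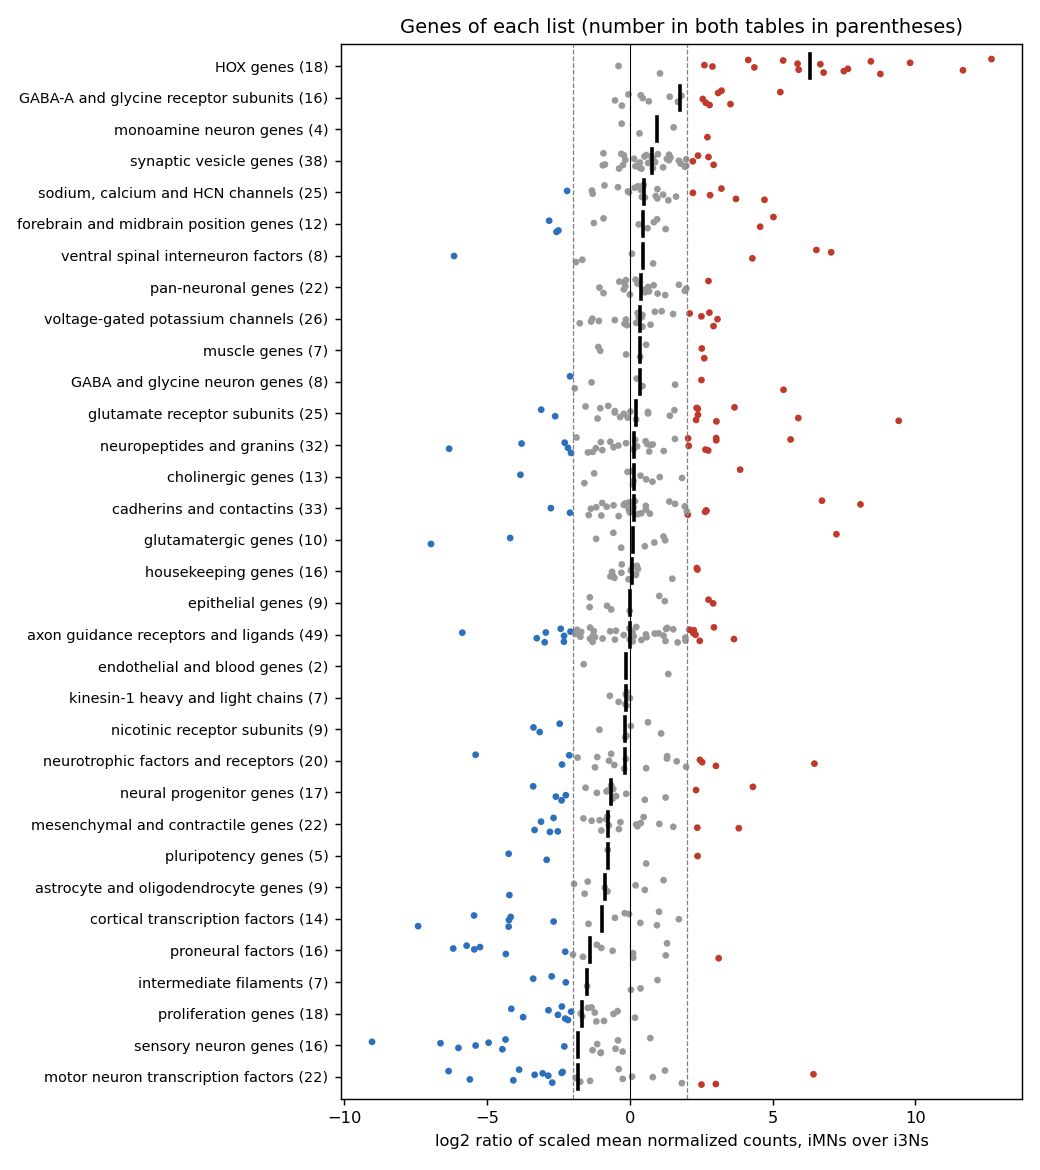
Log2 ratio of scaled mean normalized counts, iMNs over i3Ns, for each gene of the 33 lists with a mean in both cell types. Each point is a gene, black bars are list medians and dashed lines mark 4-fold. HOX genes have the highest median, 6.30, and motor neuron transcription factors, at -1.81, and sensory neuron genes, at -1.80, the lowest.

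Genes that all neurons share were close. Of 22 pan-neuronal genes, 21 were under 4-fold apart and the median log2 ratio was 0.40. DCX, a microtubule protein of young neurons, was at 186710 in iMNs and 104523 in i3Ns. The exception was SYN3, at 4969 and 735. The other synapsins leaned the same way, with SYN1 at 24731 and 7500 and SYN2 at 3453 and 907. SNAP25, a SNARE protein of synaptic vesicle release, was at 18783 and 4755. In the wider list of 38 synaptic vesicle genes, 30 were higher in iMNs, 4 of them by 4-fold or more, none was 4-fold or more higher in i3Ns, and the median was 0.77. VAMP1, a vesicle SNARE, was at 4317 and 564, and SYT12 at 805 and 154, whereas SYT4 was at 35260 and 28564.

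Of 7 intermediate filament genes, 3 were 4-fold or more higher in i3Ns and none in iMNs, and 3 had a ratio towards iMNs, of up to 0.97 on the log2 scale. PRPH, given above, was 1 of these. NEFM, the medium neurofilament subunit, was at 44102 in iMNs and 293647 in i3Ns, and NEFL, the light subunit, at 121834 and 343268. VIM, the filament of progenitors and many other cells, was at 3441 and 35877, and NES, of neural progenitors, at 6160 and 29099. The kinesin-1 genes barely differed. KIF5A, the neuron-specific heavy chain, was at 42367 and 45867, KIF5B, the ubiquitous chain, at 6348 and 10298, and KIF5C at 79914 and 104688. Per kilobase, KIF5C led in both, at 11492 and 15054, ahead of KIF5A at 7331 and 7937 and KIF5B at 1082 and 1756. ACAT2, a thiolase of acetoacetyl-CoA metabolism, was at 5937 and 5928.

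Receptors for glutamate were higher in iMNs for several subunits. GRIN2B, an NMDA receptor subunit of young neurons, was at 36191 in iMNs and 53 in i3Ns, a log2 ratio of 9.42. GRIN3A, another NMDA receptor subunit, was at 3286 and 259, and GRM7, a presynaptic metabotropic receptor, at 932 and 16. GRM2 went the other way, at 188 and 1616. Of 25 subunits with a mean in both, 8 were 4-fold or more higher in iMNs, 2 in i3Ns, and the median was 0.22. Of 16 GABA-A and glycine receptor subunits, 7 were 4-fold or more higher in iMNs and none in i3Ns, with a median of 1.75. GABRB1 was at 218 and 19, GABRQ at 400 and 47, and GABRA4 at 113 and 3.

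Ion channels leaned towards iMNs. Of 25 sodium, calcium and HCN channels, 5 (20%) were 4-fold or more higher in iMNs and 1 (4%) in i3Ns, with a median of 0.49. The shares over all genes were 5.74% and 3.22%. SCN1A, a sodium channel of mature neurons, was at 477 and 18. The T-type calcium channels CACNA1G and CACNA1I were at 624 and 47, and at 859 and 122. CACNA1E, an R-type channel, was at 15431 and 3332. Of 26 voltage-gated potassium channels, 5 (19.2%) were 4-fold or more higher in iMNs and none in i3Ns, with a median of 0.37. KCND2 was at 5034 and 659 and KCND3 at 4767 and 837, both of which carry A-type currents.

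Secreted peptides and trophic receptors differed in both directions. VGF, a granin-like protein of dense-core vesicles, was at 112763 in iMNs and 16786 in i3Ns. CARTPT was at 141 and 3 and NPPC at 509 and 62, whereas PENK, the enkephalin precursor, was at 27 and 367 and NXPH2, a neurexophilin, at 14 and 1154. Of 32 such genes with a mean in both, 7 (21.9%) were 4-fold or more higher in iMNs and 5 (15.6%) in i3Ns, beside 5.74% and 3.22% over all genes. Receptors of the cytokines that act on motor neurons were higher in iMNs. LIFR was at 18642 and 2303, and IL6ST, the shared gp130 chain, at 12368 and 2253. GFRA1, the receptor for GDNF, was at 36693 and 11737. HGF, a growth factor for motor axons, was at 214 and 2.

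Of 49 axon guidance genes, 7 (14.3%) were 4-fold or more higher in iMNs, 8 (16.3%) in i3Ns and 34 were closer, with a median of -0.01. The shares over all genes were 5.74% and 3.22%. CXCR4, a chemokine receptor of migrating neurons and of ventrally projecting motor axons, was at 47 in iMNs and 2724 in i3Ns. SEMA3C, a secreted semaphorin, was at 1175 and 9269, and EPHA8 at 372 and 3558. NTN4, a netrin, was at 640 and 51. PLXNA1, a semaphorin receptor, was at 26761 and 9299. Among adhesion genes, CNTN4 was at 2232 and 8 and CNTN6 at 674 and 6, while CNTN2, or TAG-1, of commissural and other early axons, was at 1904 and 12919. L1CAM was level, at 35716 and 36723.

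Markers of other cell states differed too, and their counts are set beside shares over all genes of 5.74% for iMNs and 3.22% for i3Ns. Of 18 proliferation genes with a mean in both, 8 were 4-fold or more higher in i3Ns and none in iMNs, and their median log2 ratio was -1.69. MKI67 was at 29 and 512 and TOP2A at 23 and 305, and PCNA, of DNA replication, was at 638 and 1192. Summed over the list, levels were 2510 in iMNs and 7587 in i3Ns. Of 5 pluripotency genes with a mean in both, 2 were 4-fold or more higher in i3Ns and 1 in iMNs. LIN28A, an RNA-binding protein of stem cells and early progenitors, was at 219 and 4136, and its relative LIN28B at 1198 and 9010, while DNMT3B, a DNA methyltransferase, was at 446 and 300. Of 17 progenitor genes, 4 were higher in i3Ns by 4-fold or more, DLL3 at 738 and 4436 among them, and 2 in iMNs, with FABP7, of radial glia, at 222 and 11. Of 22 mesenchymal and contractile genes, 5 were higher in i3Ns and 2 in iMNs. SNAI2 was at 62 and 628 and ACTA2 at 82 and 572, while CNN1 was at 325 and 23. Of 9 astrocyte and oligodendrocyte genes, 1 was 4-fold or more higher in i3Ns, CSPG4 at 13 and 250, and none in iMNs. MBP was at 336 and 931, and the list also holds SLC1A2, given above with the glutamatergic genes. Of 2 endothelial and blood genes with a mean in both, neither was 4-fold apart, while FLT1 was at 266 in i3Ns and not listed in iMNs, and the summed endothelial and blood list came to 137 and 387. Of 9 epithelial genes, 2 were 4-fold or more higher in iMNs, both at levels under 100, and none in i3Ns. The median log2 ratio was -0.0017, and -1.10 among those with a level of 100 or more. EPCAM was at 248 and 655, and the summed epithelial list came to 1543 and 2932. In these bulk libraries, fewer cells of a type and less RNA per cell cannot be told apart, and the part that such cells had in other differences was not tested.

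Some genes with a level of 100 or more were listed in 1 cell type alone. There were 68 such identifiers in iMNs and 131 in i3Ns. With identifiers of sequences outside the main annotation and genes with several identifiers left aside, 36 genes remained in iMNs and 78 in i3Ns, of which 11 and 16 reached 1000. In iMNs they included, beside HOXB9, CHL1, a cell adhesion protein of the L1 family, at 8435. DPP6, an auxiliary subunit of A-type potassium channels, was at 5885, and SLITRK2, a synaptic adhesion protein, at 1899. In i3Ns they included many transcription factors. Beside LHX9, ZIC2 and EBF2 above, MAB21L1, a nuclear protein of eye and brain development, was at 6134, SHOX2, a homeobox factor of sensory neurons and limb, at 5348, and HLX, a homeobox factor, at 1737. GALR1, a galanin receptor, was at 1382.

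Among coding genes with 1000 or more in the higher cell type, 6 of the 10 largest ratios towards iMNs were HOX genes, and the others were GRIN2B, CNTN4, TCEAL2 at 1675 and 6, and RTL1 at 2399 and 6. Towards i3Ns, the 10 were POU4F1, UNCX, TBR1, SLC17A7, DRGX, ETV1, NXPH2, HTR3A, SERTM2 and THSD7B. HTR3A, a serotonin-gated ion channel, was at 9 and 1614, and THSD7B at 98 and 8332.

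Some genes with large differences were neighbours. Among 11841 autosomal coding genes with a level of 100 or more, 505 were 4-fold or more higher in iMNs or listed there alone, and 451 were so in i3Ns. Runs of 3 or more neighbours in the same direction were picked after values were seen, and are given as a description. There were 13 such runs with 55 genes, 10 of them higher in iMNs and 3 in i3Ns. The 4 HOX clusters made 4 runs. The HOXB run, chr17:48540894-48633572, held 8 genes from HOXB2 to HOXB9. The HOXA run, chr7:26667068-27157936, held 7 HOX genes and their neighbour SKAP2, an adaptor protein, at 7353 in iMNs and 1196 in i3Ns.

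The other runs held related genes or unrelated ones. On chromosome 3, CHL1, CNTN6 and CNTN4, all neural adhesion genes of the immunoglobulin superfamily, lay in chr3:196763-3057959 and were higher in iMNs or listed there alone. On chromosome 14, in chr14:100537147-101563452, DLK1 was at 1291 in iMNs and 32 in i3Ns, RTL1 at 2399 and 6, and DIO3, a deiodinase that inactivates thyroid hormone, at 1607 and 21. They belong to an imprinted domain, in which expression depends on the parent of origin, and BEGAIN beside them was at 2952 and 574. On chromosome 8, FAM135B at 1113 and COL22A1 at 616 were listed in iMNs alone, and KCNK9, a two-pore potassium channel and also imprinted, was at 3570 and 27. On chromosome 12, SLC15A4 at 485 and GLT1D1 at 1166 were listed in iMNs alone, and TMEM132D was at 255 and 5. The run of CHRNA5, CHRNA3 and CHRNB4, chr15:78565520-78727754, was higher in i3Ns. On chromosome 17, TTYH2 was at 22 in iMNs and 688 in i3Ns and BTBD17 at 10 and 706. The 3 PCDHGA genes of the chromosome 5 run share their last exons, and the histone genes of the chromosome 6 run have near-identical copies, so their values are uncertain.

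**Figure D5:**
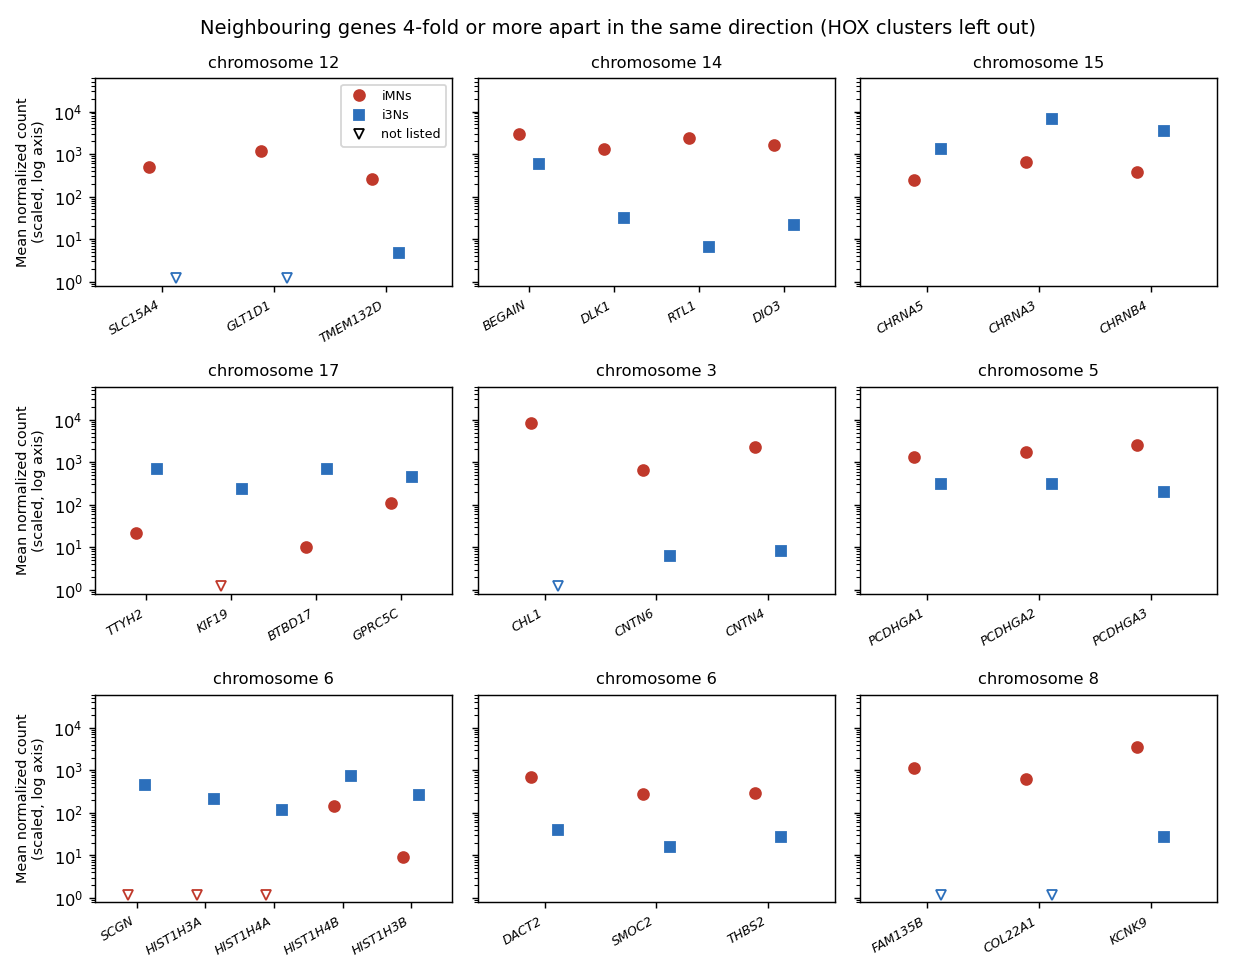
Scaled mean normalized counts, on log axes, of the 9 runs of neighbouring genes outside the HOX clusters, in chromosomal order, in iMNs (circles) and i3Ns (squares). Open triangles mark genes not listed in that cell type. In 6 panels the circles lie above the squares or the triangles, as for DLK1 at 1291 and 32, and in 3, among them CHRNA3 at 640 and 6630, the squares lie above.

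Gene span and start-site sequence differed between genes with and without large differences. Coding genes with 100 or more were put into 10 equal groups by span. The group with the longest span, a median of 322788 bp, had 8.70% that were 4-fold or more higher in iMNs and 6.54% in i3Ns. In the fifth group, with a median span of 31854 bp, these shares were 2.31% and 1.76%. In the group with the shortest span, a median of 3808 bp, they were 5.50% and 4.07%. Start-site windows of 300 bases from RefSeq were matched for 81.5% of 11828 autosomal coding genes. The observed over expected ratio of CG dinucleotides reached 0.6 in 89.8% of 8929 genes under 4-fold apart. It did so in 68.4% of 364 genes higher in iMNs or listed there alone, and in 68.5% of 346 such genes of i3Ns.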

How the data were processed

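RNA-seq was made from total RNA after ribosomal RNA depletion, with 6 libraries for iMNs and 6 for i3Ns. Per the labels and the study's methods, reads were cleaned of adapters (fastp), assigned to transcripts (Salmon) and modelled within each cell type (DESeq2), with hg38 as the build. The versions, the transcript annotation and the filter on low counts are not given in the sources used here. The deposited signal used here is the baseline column of each cell type's result table, a mean of size-factor-normalized counts that spans its 6 libraries. The deposited tables also hold the log2 fold change of the knockdown, its standard error and its p-values, and none of these was used. Depth per library is unknown, so no interval could be given.

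Genes were matched on the Ensembl identifier, and the means were scaled by the sum over shared genes (factor of 0.962, iMNs over i3Ns). A ratio of 4-fold or more was called large, with no test. Lists were read on identifiers of the GENCODE 44 main annotation, and levels per kilobase used the MANE Select transcript, or the longest where there was none. Named genes were every listed member of the motor neuron, cholinergic, glutamatergic and HOX lists. From each other list they were the 4 largest ratios with a level of 100 or more and the highest gene. The 10 largest ratios in each direction with 1000 or more, the 10 highest genes listed in 1 cell type alone, and KIF5A, KIF5B, KIF5C and ACAT2 completed them. Genes in runs of neighbours, and others so marked, were named after their values were seen. Sex-linked marker genes, HLA and immunoglobulin genes, genes of common deletions and the 468 symbols with several identifiers were not named. The cell types, lists and rules were chosen with earlier results of these data known. Scripts ran in Python 3.11 with pandas and numpy and were tested on simulated data. Scaling, a pseudocount, level and fold minima and matching on the symbol were varied. Some genes of these lists are counted but not reported here by name.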

Additional observations from a re-analysis of the deposited data

How the results depend on the processing

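The counts of genes 4-fold or more apart, 924 higher in iMNs and 518 in i3Ns, stayed within 1.5 times under 4 other scalings (925 to 953, and 500 to 518), a pseudocount of 10 (640 and 414), a level of 100 or more in the higher cell type (627 and 437) and sums by symbol (841 and 482). They were 278 and 188 at a level of 1000 or more, 2327 and 1634 at 2-fold, and 422 and 211 at 8-fold, as the construction of these settings implies. The 68 identifiers listed in iMNs alone became 31 at a minimum of 500 and 39 when matched on the symbol. The 131 listed in i3Ns alone became 201 at a minimum of 50 and 54 at 500. Other scalings moved no named log2 ratio or list median by more than 0.0445. No named ratio or list median of 4-fold or more changed sign under the alternatives run, but smaller list medians did. The medians near 0 of the axon guidance and epithelial lists turned positive under median-ratio scaling (0.0395 and 0.0428) and trimmed-mean scaling. At a level of 100 or more, the muscle median went from 0.36 to -1.10 and the glutamatergic median from 0.11 to -0.30. The endothelial and blood median went from -0.13 to 1.35 at that level, and to 0.02 with a pseudocount of 10. A pseudocount of 10 moved 85 of 187 named ratios by over 0.1, with a largest shift of 2.70 for HOXB8, and 9 of 33 list medians. A level of 100 or more moved 20 of 33 medians by over 0.1, with a largest shift of 1.88 for the spinal interneuron factors, and sums by symbol moved 3. Of 177 genes with several identifiers and 1000 or more, 22 moved by over 1 on the log2 scale when identifiers were summed, so genes of that kind were not named. No paired analysis was possible because each cell type has 1 mean and the result comes from no test. For the same reason no replicate could be left out. Depth, the error of each mean and the SCR level alone cannot be had from these means.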
